A study of Mus musculus with 3 samples.

Results

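Glycolysis and the handling of its product pyruvate were followed through 33 genes in mouse embryonic stem cells given 3 doses of FGF4. The 33 genes were a given list of symbols, out of 32285 genes counted. The list holds glucose and lactate transporters, the enzymes from hexokinase to pyruvate kinase, the mitochondrial pyruvate carrier, the pyruvate dehydrogenase complex and its kinases, pentose phosphate enzymes and 2 hypoxia-linked genes. All 33 symbols were found. Aldoa stood on 2 gene identifiers, of which ENSMUSG00000030695 is used here and the second held 1, 6 and 8 UMIs at 0, 5 and 50 ng/ml.

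The cells in every library were of the E14tg2a line with genotype Fgf4 -/-, which lack the gene of FGF4, a ligand that activates the ERK pathway in these cells. They were seeded in ES + LIF medium and then kept for 24 h in N2B27 medium with Chiron (an inhibitor of the kinase GSK3), 1 µg/ml heparin and 0, 5 or 50 ng/ml FGF4. The labels do not say whether the mutant line was 1 clone, nor which library was detached with trypsin and which with Accutase. Each dose was 1 droplet library of single cells, with 373, 874 and 975 cells and 42726514, 75184072 and 81409975 unique molecular identifiers (UMIs, each one captured RNA molecule) in dose order. Differences between doses therefore have no replicate check, and the 95% intervals given cover counting error only.

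Glycolysis splits glucose into pyruvate in the cytosol. Pyruvate is then either reduced to lactate and exported, or carried into mitochondria and turned into acetyl-CoA by the pyruvate dehydrogenase complex, which pyruvate dehydrogenase kinases switch off. Pluripotent cells are known for high glycolytic flux, and several glycolytic genes are textbook targets of the hypoxia-inducible factor HIF, of MYC and of pluripotency factors.

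The embryonic stem cell label held: 9 of 9 markers of that state reached 45.5 CPM (UMIs scaled to a library total of 1000000) or more in every library. Of 25 markers of fibroblasts, primitive endoderm, neuroectoderm and mesoderm, 0 reached 20 CPM, and their summed level was 29.0, 26.7 and 32.7 CPM. Within that sum the groups went opposite ways. Mesoderm markers summed to 4.52, 11.2 and 14.8 CPM at 0, 5 and 50 ng/ml, and neuroectoderm markers to 17.7, 10.1 and 10.1 CPM. Median UMIs per cell were 107873, 91763.5 and 87334 in dose order. Barcodes with over 10% mitochondrial UMIs numbered 12, 133 and 153. No barcode was shared between libraries (0). The ERK target Etv4 stood at 1.17, 49.8 and 88.9 CPM, so the FGF4 doses could be told apart in the RNA.

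The 33 genes together took nearly the same part of the RNA at each dose, 1.07%, 1.06% and 1.10% of UMIs. Gapdh alone made up 35.8%, 31.6% and 32.2% of that. Single genes moved apart beneath this total. At 20 CPM in the higher library, 25 members could be compared between 5 and 0 ng/ml, and 26 between 50 and 0 and between 50 and 5 ng/ml. The 7 members under 20 CPM in every library were Pfkm, Aldoc, Eno2, Pfkfb3, Pfkfb4, Pdk2 and Egln3.

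At a difference of 1.5-fold, 1 of 25 members (Pfkl) was higher at 5 than at 0 ng/ml, against 3.71% of all genes compared, and 0 were lower, against 3.99%. Between 50 and 0 ng/ml, 2 of 26 members (Pfkl and Slc16a3) were higher, against 4.50%, and 0 were lower, against 5.96%. Between 50 and 5 ng/ml, 0 members differed in either direction, against 0.182% higher and 0.345% lower. At a smaller limit, a level 25% above that of the other library, 4 members were higher and 2 lower at 5 than at 0 ng/ml, against 11.0% and 10.2% of all genes. For 50 against 0 ng/ml the members numbered 8 higher and 3 lower, against 13.8% and 14.3%, and for 50 against 5 ng/ml 0 and 0, against 0.745% and 1.91%. For the 1.5-fold limit the shares of members were near those of all genes, and the 8 members make up 30.8% of those compared. The median log2 ratio of the compared members was 0.16 at 5 and 0.16 at 50 ng/ml over 0 ng/ml, where all compared genes had medians of 0.03 and 0.02. With the mean share per cell in place of library sums the members' medians were 0.016 and 0.070, where those of all compared genes were -0.040 and -0.064. With it, 0 members were 1.5-fold higher at 5 ng/ml, and 1 member (Slc2a3) was 1.5-fold lower at 50 ng/ml. The shares of all genes past 1.5-fold were not computed for this scaling. Both comparisons share the 0 ng/ml library.

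**Figure D1:**
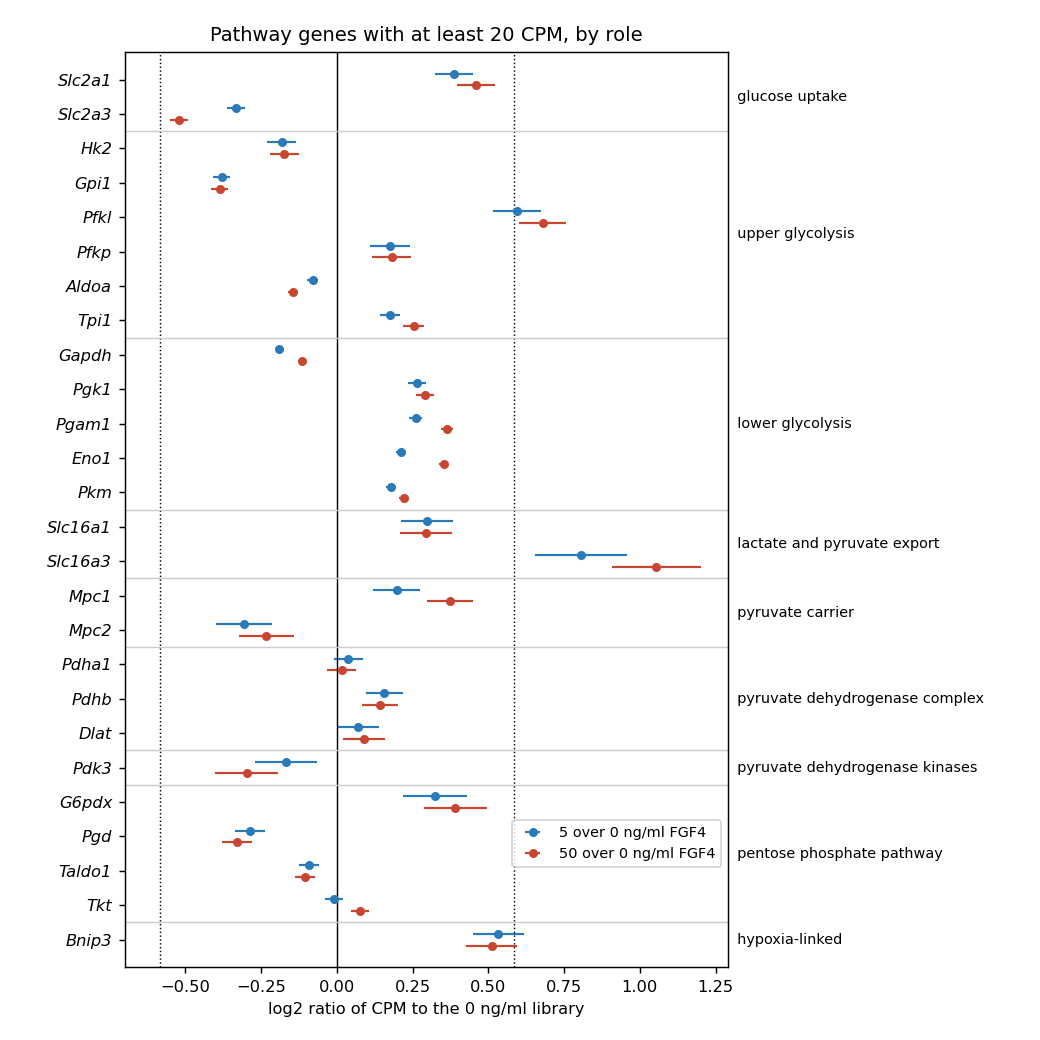
Log2 ratio of CPM at 5 ng/ml (blue) and 50 ng/ml (red) to the 0 ng/ml library for the 26 members that reached 20 CPM, grouped by role, with bars for the 95% counting interval and dotted lines at 1.5-fold. Pfkl and Slc16a3 lie beyond 1.5-fold at 50 ng/ml, and 4 of 5 lower glycolytic enzymes lie to the right of 0 with Gapdh to the left.

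Glucose uptake was divided between 2 transporters that went opposite ways. Slc2a1, which encodes the widely expressed transporter GLUT1, stood at 66.2, 86.6 and 91.0 CPM at 0, 5 and 50 ng/ml. Slc2a3, which encodes the high-affinity transporter GLUT3, stood at 365, 289.6 and 254 CPM. Slc2a1 was 1.37-fold higher at 50 than at 0 ng/ml (interval 1.32 to 1.44), and Slc2a3 was 1.43-fold lower (1.40 to 1.46). The share of Slc2a1 in the UMIs of both genes was 15.4%, 23.0% and 26.3% in dose order, with intervals that did not overlap between 0 ng/ml and the other doses. A 3′ library counts one end per RNA, so these shares need no correction for length, although capture can differ between genes.

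The enzymes of upper glycolysis, which invest ATP and cut the sugar in 2, were mixed: of 6 compared at 50 against 0 ng/ml, 3 were higher and 3 lower. Hk2, the hexokinase that traps glucose in the cell, was at 132, 116 and 117 CPM. Gpi1, the isomerase that turns glucose 6-phosphate into fructose 6-phosphate, was at 407, 313 and 311 CPM, or 1.31-fold lower at 50 than at 0 ng/ml (1.28 to 1.33). The lower level of Gpi1 was already present at 5 ng/ml, where the ratio to 50 ng/ml was 0.995 (0.978 to 1.01).

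Phosphofructokinase catalyses the committed step, and its liver-type gene Pfkl showed the largest difference among the members at 20 CPM that encode enzymes. Pfkl stood at 40.8, 61.6 and 65.3 CPM, which is 1.51-fold higher at 5 ng/ml (1.43 to 1.60) and 1.60-fold higher at 50 ng/ml (1.52 to 1.69) than without FGF4. The platelet-type Pfkp was at 65.1, 73.4 and 73.7 CPM, and the muscle-type Pfkm at 14.0, 13.7 and 14.0 CPM. Pfkl UMIs were 34.0%, 41.4% and 42.7% of those of the 3 genes, while Pfkp made up 54.3%, 49.4% and 48.2% and was the most abundant at each dose. The 5 ng/ml value of Pfkl lies next to the 1.5-fold limit: with the cells inside a filter on mitochondrial share and depth, 0 members were 1.5-fold higher at 5 ng/ml.

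Aldoa, the aldolase of most tissues, had 1025, 969 and 928 CPM, 1.10-fold lower at 50 than at 0 ng/ml (1.09 to 1.12). Aldoc, the brain-type aldolase, stayed at 4.84, 5.41 and 5.36 CPM. Triosephosphate isomerase, Tpi1, which interconverts the parts of the cut sugar, was higher in order of dose with 243, 274 and 289.6 CPM.

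Lower glycolysis, which yields ATP and ends in pyruvate, was higher with FGF4 for 4 of its 5 compared enzymes, and the members kept their order of level at each dose. Eno1, the enolase, stood at 1252, 1449 and 1599 CPM and was 1.28-fold higher at 50 than at 0 ng/ml (1.26 to 1.29). Pgam1, the phosphoglycerate mutase, had 663, 794 and 853 CPM, a ratio of 1.29 (1.27 to 1.30). Pgk1, the phosphoglycerate kinase, had 323, 388 and 395 CPM. Pkm, whose splice forms of pyruvate kinase cannot be told apart in counts per gene, had 1027, 1162 and 1197 CPM.

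Gapdh was the exception, with 3815, 3338 and 3526 CPM: highest without FGF4, and 1.14-fold lower at 5 ng/ml (1.14 to 1.15). This gene is often used as a reference, so a ratio to Gapdh would move every other member upward by that amount at 5 ng/ml. Eno2, the neuronal enolase, had 25, 67 and 55 UMIs in the 3 libraries, 0.585, 0.891 and 0.676 CPM, and is too low to order. Near-identical copies can take reads from such genes. The Eno1 copy Eno1b had 44.0, 76.5 and 50.5 CPM and did not follow the order of Eno1, whereas Aldoart1, Aldoart2, Gapdhs, Pgk2, Pdha2 and G6pd2 had 40 UMIs or fewer in each library.

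The enzymes that make and break fructose 2,6-bisphosphate, an activator of phosphofructokinase, were scarce. Pfkfb3 had 5.85, 4.80 and 4.62 CPM, and Pfkfb4 had 1.24, 0.811 and 0.897 CPM. Both values without FGF4 were the highest of the 3, but for Pfkfb4 the interval of the ratio of 50 to 0 ng/ml, 0.501 to 1.05, includes 1.

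Export of lactate and pyruvate held the largest relative difference of any member at 20 CPM. Slc16a3, which encodes the low-affinity lactate exporter MCT4, stood at 11.0, 19.3 and 22.9 CPM. It was 2.08-fold higher at 50 than at 0 ng/ml (1.88 to 2.30) and 1.19-fold higher at 50 than at 5 ng/ml (1.11 to 1.27). At 5 against 0 ng/ml its ratio was 1.75, but neither library reached 20 CPM. Slc16a1, which encodes the transporter MCT1, stood at 37.0, 45.5 and 45.4 CPM, with no further difference between the FGF4 doses (ratio 0.997, 0.952 to 1.05). The Slc16a3 share of both transporters was 23.0%, 29.8% and 33.6%. Embigin, encoded by Emb and known as a chaperone of MCT transporters, was not a member, and its level went from 53.4 to 112 and 120.3 CPM. The other known chaperone, basigin (Bsg), had 319, 323 and 346 CPM.

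Entry of pyruvate into mitochondria showed small and opposed differences. The carrier is built of MPC1 and MPC2. Mpc1 stood at 46.9, 53.7 and 60.7 CPM, 1.29-fold higher at 50 than at 0 ng/ml (1.23 to 1.36), and Mpc2 at 37.1, 30.0 and 31.6 CPM, 1.18-fold lower. The pyruvate dehydrogenase complex itself hardly differed. Pdha1, the catalytic alpha subunit, had 126.8, 130.2 and 128 CPM, Pdhb, the beta subunit, had 79.5, 88.6 and 87.7 CPM, and Dlat, the acetyltransferase core, had 60.3, 63.3 and 64.1 CPM. Their ratios of 50 to 0 ng/ml were 1.01, 1.10 and 1.06, and the interval for Pdha1, 0.978 to 1.04, includes 1; with the mean share per cell in place of library sums, Pdha1 and Dlat came out just below 1. The 13 genes of the citric acid cycle that follow this step also differed little, with 0 of 13 at 1.5-fold and a median log2 ratio of -0.0026.

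Among the kinases that inhibit the complex, Pdk3 stood at 29.6, 26.4 and 24.1 CPM, 1.23-fold lower at 50 than at 0 ng/ml (1.14 to 1.32), and Pdk2 at 1.71, 1.46 and 1.24 CPM. Pdk1 is not on the list and was at 14.8, 92.7 and 106 CPM, so that Pdk3 had 64.2%, 21.9% and 18.3% of the UMIs of the 3 kinases. Lactate dehydrogenase, also outside the list, had 57.8%, 83.7% and 88.0% of its UMIs from Ldha, the pyruvate-reducing type. Hk2 in the same way went from 82.0% to 92.5% of hexokinase UMIs with Hk1 at 29.0 CPM without FGF4 and 9.48 CPM at 50 ng/ml. Of the kinases and hexokinases, Pdk3 and Hk2, which are on the list, differed less between doses than Pdk1 and Hk1, which are not.

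**Figure D2:**
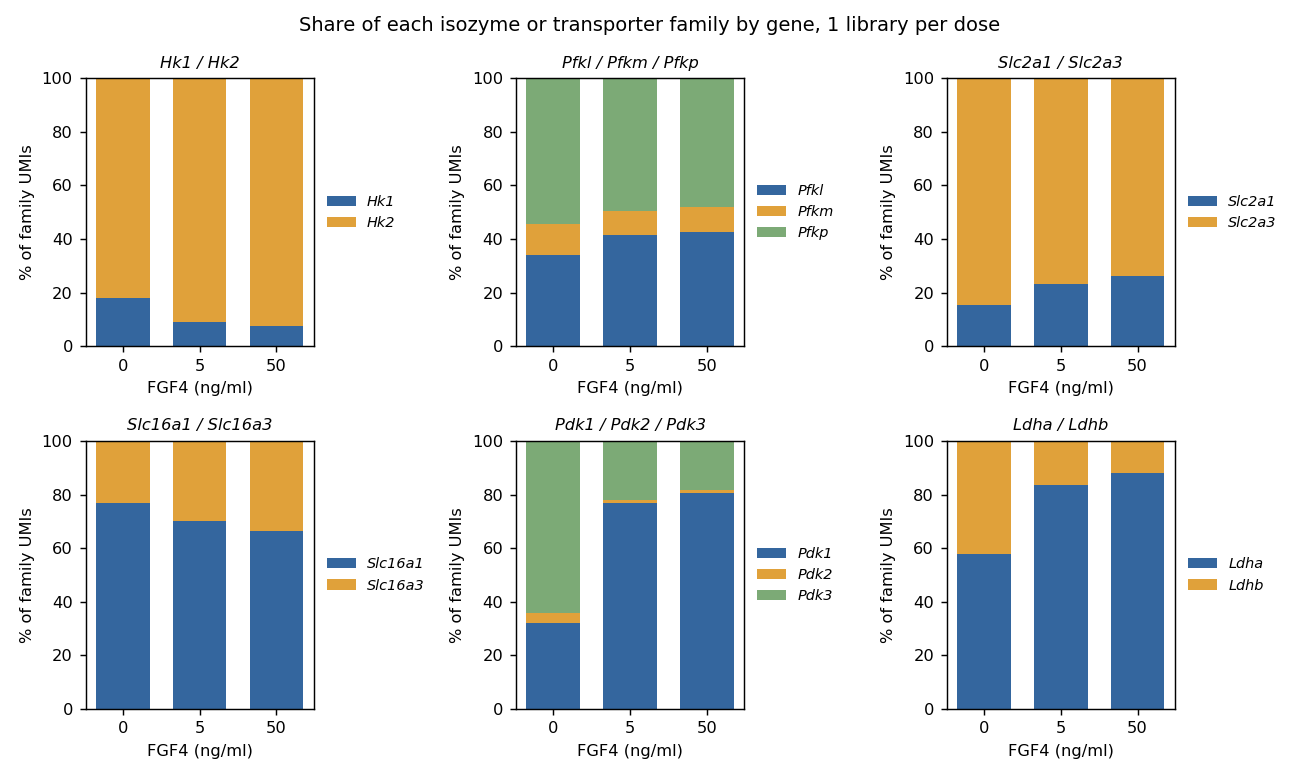
Share of the UMIs of each isozyme or transporter family taken by each gene (bars stacked to 100%), by FGF4 dose in ng/ml, 1 library per dose. The change between 0 and 5 ng/ml is larger than that between 5 and 50 ng/ml in all 6 families, and the kinases change most, with Pdk1, which is not a member, from 32.1% to 80.8% and Pdk3, a member, from 64.2% to 18.3%.

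The pentose phosphate pathway, which branches from glycolysis to make NADPH and ribose, had its first enzymes moving apart. G6pdx, glucose 6-phosphate dehydrogenase, stood at 25.1, 31.4 and 32.9 CPM, 1.31-fold higher at 50 than at 0 ng/ml (1.22 to 1.41). Pgd, the dehydrogenase of the third step, stood at 129.9, 106 and 103 CPM, 1.26-fold lower (1.21 to 1.30). The enzymes of the reversible branch, Taldo1 at 265, 249 and 247 CPM and Tkt at 317, 315 and 334 CPM, differed by less than 1.1-fold.

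The 2 hypoxia-linked genes were both higher with FGF4. Bnip3, a mitophagy receptor and a well-known HIF target, stood at 37.3, 53.9 and 53.1 CPM, 1.42-fold higher at 50 than at 0 ng/ml (1.34 to 1.51). Egln3, the inducible HIF prolyl hydroxylase, stood at 1.83, 3.75 and 4.69 CPM, from 78, 282 and 382 UMIs, a ratio of 2.57 (2.01 to 3.32) at a level below the 20 CPM limit. Other hypoxia-inducible genes did not move together. Of 18 listed genes that were not members, 9 reached 20 CPM, of which 2 (Pdk1 and Ldha) were at least 1.5-fold higher and 1 (P4ha1) at least 1.5-fold lower at 50 than at 0 ng/ml. The median log2 ratio of those 9 was -0.02. Hif1a, the oxygen-labile HIF subunit, had 75.0, 74.9 and 72.9 CPM. Among 18 regulators of the pathway, 9 reached 20 CPM, with Lin28a at 75.5, 172 and 179.7 CPM and Esrrb at 93.1, 63.9 and 49.5 CPM past 1.5-fold. Myc stayed just below 20 CPM, at 1.66, 13.2 and 19.3 CPM, and is named after its values were seen: its ratio of 50 to 0 ng/ml, 11.6 (9.14 to 14.9), was the largest among these regulators.

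Over the 26 members at 20 CPM, 12 were higher and 6 lower in strict order of dose and 8 in neither order, against 32.0% and 30.4% among 5745 genes at that level, and for members with near-equal FGF4 doses, such as Slc2a1 and G6pdx, the order of 5 and 50 ng/ml changed with the scaling. For the members that differed most, the larger part of the difference was present at 5 ng/ml. Of the log2 difference between 50 and 0 ng/ml, 87.6% was reached at 5 ng/ml for Pfkl, 84.2% for Slc2a1, 76.4% for Slc16a3, 64.0% for Slc2a3 and 59.8% for Eno1. Bnip3, Slc16a1 and Gpi1 had 104%, 101% and 98.3%, no further change at the higher dose. The median log2 ratio of the members between 50 and 5 ng/ml was 0.02, where all genes had -0.01.

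Promoters were read for the members whose levels or cell-to-cell spread differed most, Pfkl, Slc16a3 and Bnip3, and for Pgk1, a textbook HIF target. Each line gives 250 bases before the RefSeq transcription start on GRCm38.p6, 5′ to 3′ on the gene's strand, with capitals at ACGTG or GCGTG (the core of the HIF-binding motif) on either strand, so that CACGT and CACGC are also capitals. Matches that overlap run together.
Pfkl, chr10:78009808-78010057, minus strand: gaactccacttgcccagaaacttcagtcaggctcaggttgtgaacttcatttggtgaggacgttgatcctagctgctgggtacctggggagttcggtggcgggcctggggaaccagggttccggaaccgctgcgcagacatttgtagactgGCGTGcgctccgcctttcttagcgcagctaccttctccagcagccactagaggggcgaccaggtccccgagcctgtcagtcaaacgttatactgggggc
Slc16a3, chr11:120948817-120949066, plus strand: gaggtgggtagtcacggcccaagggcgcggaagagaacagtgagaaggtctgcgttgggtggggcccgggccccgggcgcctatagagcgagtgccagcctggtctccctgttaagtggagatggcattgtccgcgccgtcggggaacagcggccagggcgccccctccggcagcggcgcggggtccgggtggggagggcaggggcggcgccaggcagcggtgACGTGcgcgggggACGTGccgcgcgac
Bnip3, chr7:138909507-138909756, minus strand: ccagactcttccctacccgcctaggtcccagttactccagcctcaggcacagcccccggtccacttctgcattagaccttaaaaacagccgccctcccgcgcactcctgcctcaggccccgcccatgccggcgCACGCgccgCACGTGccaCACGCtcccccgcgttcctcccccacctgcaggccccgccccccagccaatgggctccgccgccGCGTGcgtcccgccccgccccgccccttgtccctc
Pgk1, chrX:106186850-106187099, plus strand: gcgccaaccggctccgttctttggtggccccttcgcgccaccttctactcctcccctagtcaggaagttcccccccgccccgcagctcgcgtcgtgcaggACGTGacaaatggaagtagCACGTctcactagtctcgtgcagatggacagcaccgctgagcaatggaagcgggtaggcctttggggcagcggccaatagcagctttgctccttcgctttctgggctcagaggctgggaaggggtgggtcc
The Pfkl window held 1 match, Slc16a3 2, Bnip3 5 and Pgk1 2. In Bnip3, 2 of the 5 overlap in 1 palindrome CACGTG. A RefSeq promoter was found for 32 of the 33 members, and Slc2a3 had no entry. For a gene with several RefSeq starts the window with most matches was counted, in members and other genes alike. Such genes had more chances to match, and the sets were not matched for this. At least 1 match stood in 28 of 32 members (87.5%), and among members at 20 CPM in 22 of 25 (88.0%), compared with 66.0% of 4633 genes at 20 CPM and 41.5% of all 27025 genes. For ACGTG alone the shares were 46.9% of the 32 members, 44% of the 25 members at 20 CPM, 27.2% of genes at 20 CPM and 18.5% of all genes. Median GC content was 61.7%, 62.8%, 60.4% and 52.4% in the same sets in that order, and its part in these shares was not tested. Gpi1, Tpi1, Eno2 and Dlat had no match in the window, which says only that these letters are not there.

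Single cells were compared after drawing 30000 UMIs from each, in 359, 706 and 798 cells with at most 10% mitochondrial UMIs and a depth within 3-fold of the library median. All cells inside that filter were deep enough. The summed UMIs of the 33 genes had medians of 314, 316 and 327 per cell. Between the 5th and the 95th percentile of cells the sum ran from 238.9 to 414 without FGF4, 249 to 389.8 at 5 ng/ml and 266 to 409.9 at 50 ng/ml. Beyond counting noise the sum varied by 15.7%, 12.9% and 12.8% of its mean (coefficient of variation), and without Gapdh by 18.9%, 13.2% and 13.9%. The library without FGF4 had the wider spread of total pathway RNA, with nearly equal medians.

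The excess of variance over counting noise, divided by the squared mean (excess CV2), puts genes of different levels on 1 scale. Its median over the 25 members with 0.5 drawn UMIs or more in each library was 0.076, 0.080 and 0.083, near the medians of all 5545 genes at that level, 0.074, 0.074 and 0.073. Without FGF4, Dlat, G6pdx and Taldo1 were the most even, with -0.017, 0.0056 and 0.014. Gapdh, the most abundant member, had 0.029, 0.034 and 0.029 in dose order. Pfkp, Slc2a1 and Bnip3 were the most uneven of these 25 members in every library, with Pfkp at 0.50, 0.33 and 0.34 and Slc2a1 at 0.46, 0.37 and 0.48.

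Bnip3 and Slc16a3 were more uneven among cells without FGF4 than among cells with it. The excess CV2 of Bnip3 was 2.58, 0.47 and 0.56 in dose order, and that of Slc16a3 was 3.86, 1.21 and 1.22. Slc16a3 is not among those 25 members, since it averaged 0.373 drawn UMIs per cell without FGF4. In the 5% of cells with most UMIs of the gene lay 37.7% of all Bnip3 UMIs at 0 ng/ml, against 19.5% and 20.4% at 5 and 50 ng/ml. For Slc16a3 those shares were 47.8%, 31.3% and 31.3%. Such a share is higher at a lower level even with equal cells: Poisson counting alone at the same means would give 16.4%, 14.0% and 14.1% for Bnip3 and 28.8%, 21.5% and 20.7% for Slc16a3. Cells with at least 1 drawn Bnip3 UMI made up 46.5% of the library without FGF4 (exact binomial interval 41.3 to 51.8%), 73.7% at 5 ng/ml (70.2 to 76.9%) and 73.4% at 50 ng/ml (70.2 to 76.5%). Before drawing, these shares were 81.6%, 95.5% and 94.0%. For Slc16a3 they were 21.2%, 35.7% and 38.3% after and 43.2%, 64.6% and 67.2% before drawing. Fewer cells without FGF4 had either RNA, yet the highest cell was there for both, with 18 Bnip3 UMIs and 9 Slc16a3 UMIs. No cell type that should lack these genes was present, so the part of free RNA in such shares was not measured.

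The difference did not rest on 1 cell. Without the highest cell of each library, excess CV2 was 2.18, 0.41 and 0.52 for Bnip3 and 2.91, 1.10 and 1.14 for Slc16a3. Tpi1 showed a smaller difference of the same kind, 0.28, 0.13 and 0.12, and there 1 cell with 48 UMIs counted for much: without the highest cells the values were 0.21, 0.12 and 0.11. Pgk1 had 0.18, 0.11 and 0.10. Pfkl, at 0.31, 0.08 and 0.08, came out at 0.17 without FGF4 with a second random draw. Without the 5% of cells with most UMIs of the 33 genes, an alternative chosen after seeing the data, Bnip3 had 1.88, 0.40 and 0.34 and Slc16a3 3.32, 1.06 and 1.10. Tpi1 then had 0.16, 0.12 and 0.10, Pgk1 0.11, 0.10 and 0.069, and Pfkl 0.29, 0.037 and 0.077. With those cells left out, excess CV2 of Bnip3 and Slc16a3 was still higher without FGF4 than with it. Those cells were picked on a sum that includes these genes. Without FGF4, Tpi1 and Pgk1 gave it 7.39 and 9.89 drawn UMIs per cell on average, and Bnip3 and Slc16a3 1.13 and 0.373. The lower values of Tpi1 and Pgk1 therefore cannot show that their differences lay in those cells.

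**Figure D3:**
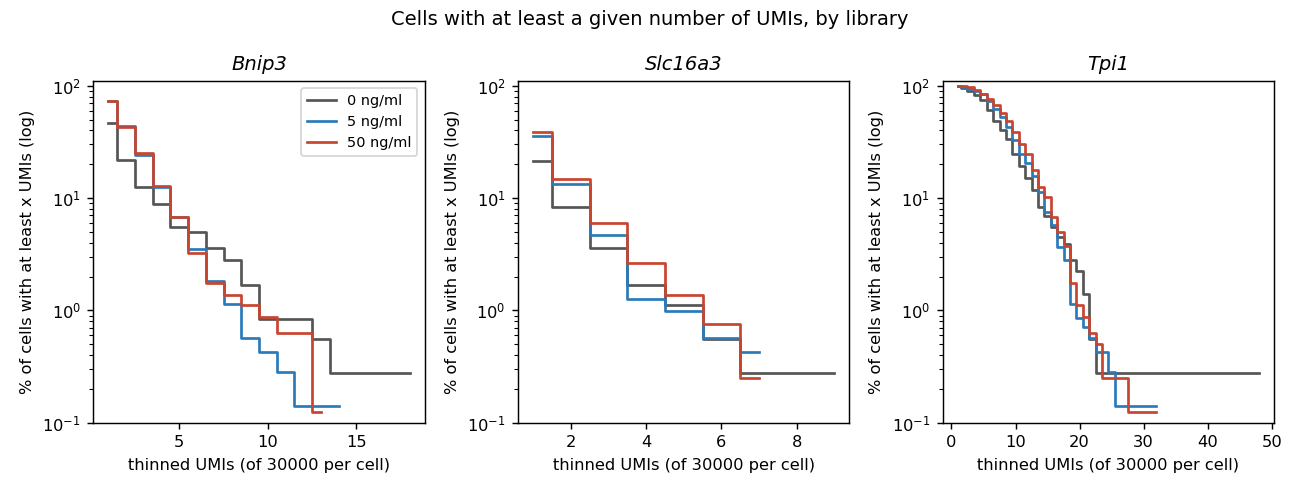
Percent of cells (log axis) with at least the number of UMIs on the x axis, out of 30000 drawn per cell, for Bnip3, Slc16a3 and Tpi1 in the 3 libraries of 359, 706 and 798 cells. For Bnip3 the 0 ng/ml curve starts lowest, at 46.5% of cells, and ends farthest right, at 18 UMIs.

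Glycolytic enzymes, mostly those from the aldolase step on, varied together from cell to cell. Pearson correlations of log2(drawn UMIs + 1) are given as descriptions without a test, over cells that share a library and its composition. Among the 22 members with at least 1 drawn UMI per cell in each library, the median over 231 pairs was 0.060, 0.035 and 0.026, where pairs of all 3609 genes at that level had 0.0066, 0.0066 and 0.0060. Among the 11 glycolytic enzymes the median of 55 pairs was 0.22, 0.13 and 0.14 at 0, 5 and 50 ng/ml, and 32, 20 and 18 pairs lay above 0.2. Some pairs were near or below 0 with FGF4. Gpi1 and Pgam1 had 0.245, -0.0039 and 0.10, and Pfkp and Eno1 0.23, -0.0083 and -0.026. The 5% of all gene pairs with the highest correlation began at 0.11, 0.093 and 0.091. All these genes met the same lower limit of 1 drawn UMI, but they were not matched to the enzymes for level. Counting noise lowers r less at higher levels, and its part in the difference was not tested.

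The pairs that were closest in every library join enzymes from the aldolase step to pyruvate kinase. Eno1 and Pkm had r of 0.52, 0.31 and 0.36, Aldoa and Eno1 0.49, 0.31 and 0.33, and Aldoa and Tpi1 0.46, 0.27 and 0.35. The highest values at 5 ng/ml were those of Pgk1 and Eno1, with 0.39, 0.39 and 0.28, and of Aldoa and Pgk1, with 0.41, 0.34 and 0.25. Tpi1 and Pgk1 had 0.33, 0.31 and 0.36, and Gapdh and Eno1, with 0.34, 0.33 and 0.33, were the steadiest of these pairs. Without the same 5% of cells, Eno1 and Pkm had 0.47, 0.28 and 0.31, and the median of the 55 pairs was 0.18, 0.11 and 0.095. Aldoa with Eno1 and with Tpi1 also stayed higher without FGF4, at 0.45 and 0.43 against 0.25 to 0.31 at the other doses. Tpi1 and Pgk1, with 0.26, 0.28 and 0.31, were lowest without FGF4, and Gapdh and Eno1, with 0.29, 0.28 and 0.28, were nearly equal at each dose. The cells left out were picked on the sum of the same genes, and such a cut can by itself lower correlations between its parts. These values therefore cannot show how far the correlations rested on those cells.

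Apart from Bnip3, the other members had lower median correlations with the 11 glycolytic enzymes than these had among themselves. Counting noise pulls r toward 0 at low levels. Mpc1 and Pdha1 averaged 1.40 and 3.72 drawn UMIs per cell without FGF4, against 19.4 for Pgam1 and 114 for Gapdh. The part of level in these values was not tested. The 4 genes of the pyruvate dehydrogenase complex and carrier at that level had a median r of 0.054, 0.019 and 0.016 among themselves, and of -0.014, -0.0098 and -0.0082 with the glycolytic enzymes. Pentose phosphate enzymes had medians of 0.081, 0.047 and 0.029 with them. Slc16a1 and Slc2a3 had medians within 0.022 of 0 at each dose. Bnip3, which is no enzyme of the pathway, had medians of 0.27, 0.17 and 0.18 with the 11 enzymes, with Pgk1 at 0.42, 0.25 and 0.23 (0.31, 0.21 and 0.14 without the 5% of cells), above Slc2a1 at 0.17, 0.060 and 0.084.

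**Figure D4:**
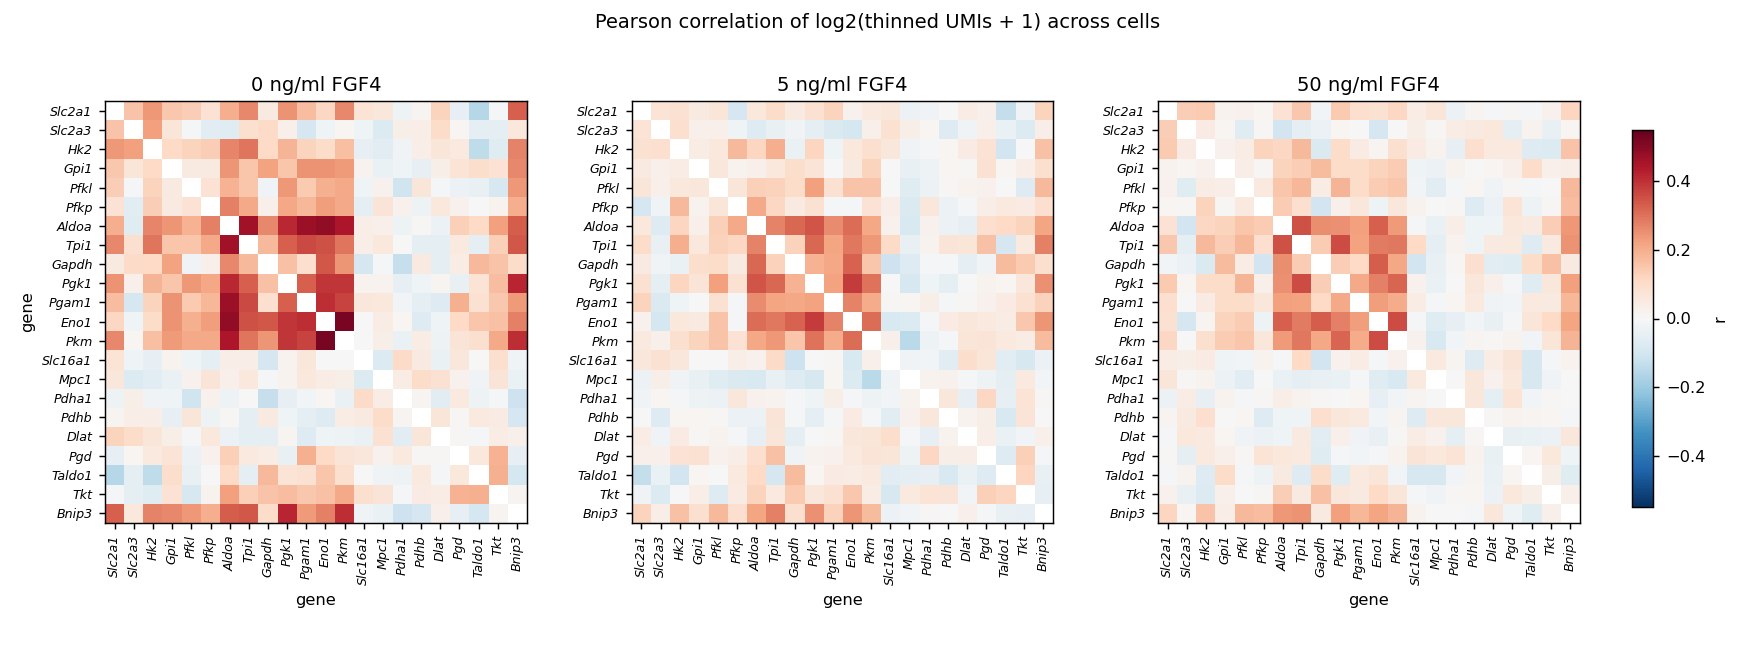
Pearson correlation of log2(drawn UMIs + 1) across 359, 706 and 798 cells at 0, 5 and 50 ng/ml FGF4 for the 22 members with at least 1 drawn UMI per cell (both axes, in order of role). The block from Aldoa to Pkm is the reddest in each library, up to 0.52 without FGF4. Bnip3 is red mainly with some glycolytic enzymes, while the pyruvate carrier and dehydrogenase rows lie near 0.

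The correlation of the summed members with hypoxia-inducible genes across cells depended on Ldha, the most abundant gene of that list. The sum had r of 0.51, 0.40 and 0.42 with the 18 hypoxia-inducible genes that were not members, but 0.18, 0.068 and 0.17 with 17 of them, Ldha left out after seeing the data. It had r of -0.028, -0.060 and -0.10 with naive pluripotency genes. With ERK response genes r was 0.041, -0.066 and -0.10, with S phase genes 0.16, -0.076 and -0.021, with G2/M genes 0.0045, 0.042 and -0.038, and with citric acid cycle genes 0.15, 0.26 and 0.19. Total UMIs before drawing had 0.18, 0.19 and 0.13 with the sum, and mitochondrially encoded UMIs -0.10, 0.040 and -0.11. Ribosomal protein UMIs had 0.014, 0.21 and 0.20. Some of these values depended on Gapdh. With Gapdh left out of the sum, r was 0.27, 0.033 and 0.090 with S phase genes and -0.096, 0.019 and -0.0078 with ribosomal protein UMIs. With the 17 hypoxia-inducible genes it was then 0.25, 0.16 and 0.23.

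Single members were compared over the same 17 genes, also after seeing the data. The r of Gapdh with their sum was -0.069, -0.098 and -0.022 and that of Eno1 0.026, 0.026 and 0.099, whereas Bnip3 had 0.43, 0.13 and 0.26 and Tpi1 0.26, 0.13 and 0.21. In the 10% of cells with most UMIs of those 17 genes (36, 71 and 80 cells), Bnip3 averaged 5.60-fold its mean in the other cells without FGF4, 1.52-fold at 5 ng/ml and 2.04-fold at 50 ng/ml. Slc16a3 averaged 5.51-fold, 1.95-fold and 3.00-fold. Slc2a1 had 1.91, 1.43 and 1.75, Pfkp 1.73, 1.30 and 1.29, Hk2 1.67, 1.26 and 1.40, Tpi1 1.7, 1.2 and 1.3, and Pgk1 1.62, 1.18 and 1.35. The other transporters had lower ratios, Slc2a3 1.32, 1.04 and 1.30 and Slc16a1 0.973, 1.23 and 1.06. Gapdh, Taldo1 and Tkt had 0.904 to 1.03 in the 3 libraries, and Pdha1 0.98 to 1.04. The 4 transporters thus had no common pattern, and Hk2, Pfkp, Tpi1 and Pgk1 had higher ratios than Gapdh in each library. Pdk1 is among the 17 and 6.25-fold higher at 5 than at 0 ng/ml, so the cells picked at each dose were not picked on the same mixture of RNAs.

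**Figure D5:**
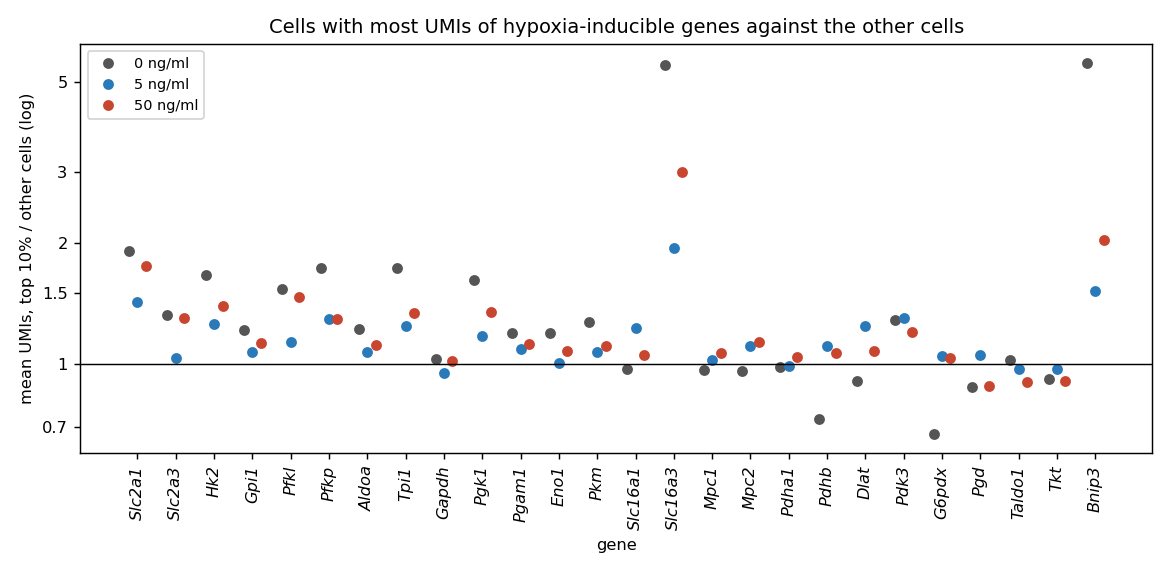
Mean drawn UMIs of each member in the 10% of cells with most UMIs of 17 hypoxia-inducible genes, divided by the mean in the other cells (log axis), for the 25 members with 0.5 drawn UMIs per cell and Slc16a3. Bnip3 and Slc16a3 at 0 ng/ml stand at 5.60 and 5.51, and the 3 genes of the pyruvate dehydrogenase complex lie between 0.733 and 1.24.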

How the data were processed

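The deposited matrices hold UMI counts per gene and cell barcode, written by Cell Ranger 4.0.0 per the file headers and aligned to mm10 per the submitters' processing notes. The annotation release, the choice of barcodes and the treatment of reads that fit several genes are not stated in the labels or files. Genes were placed with GENCODE M21 (GRCm38, the assembly of mm10).

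The members and lists were chosen with earlier results of these data known. All 33 members are described, and other listed genes are named at 20 CPM and 1.5-fold, or as part of an isozyme family. UMIs were summed over all barcodes of a library and scaled to its total (CPM). Ratios carry exact conditional binomial 95% intervals, and shares exact binomial ones. With 1 library per dose no test was made, and the floor of 3 UMIs lay at 0.0702, 0.0399 and 0.0369 CPM in dose order. Cells were thinned once to 30000 UMIs, and no doublet caller was run. The ratio and variation steps were tested on simulated data. Python 3.11.15, numpy 2.4.6, scipy 1.17.1, edgeR 4.0.16 (TMM factors only) and R 4.3.3 were used. Alternatives were other scalings, CPM and fold limits, cell sets, thinning depths and draws.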

Additional observations from a re-analysis of the deposited data

How the results depend on the processing

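No paired analysis was possible because each dose was 1 library, and no library could be left out of a comparison. No scaling moved the median of all genes by over 0.1 on the log2 scale. The largest shift, -0.09, came with the mean share per cell, in which shallow and mitochondria-rich barcodes weigh as much as the others. With that mean the median log2 ratio of the members was 0.016 at 5 and 0.070 at 50 over 0 ng/ml, and that of all compared genes was -0.040 and -0.064. There 0 members were 1.5-fold higher at 5 ng/ml, and 1 (Slc2a3) was 1.5-fold lower at 50 ng/ml. Against 0 ng/ml, Pdha1, Dlat, Tkt and the sparse Aldoc changed sign there in at least 1 comparison, and Pfkm, at a ratio of 0.996, with TMM and median-of-ratios factors and the cell filter. The cell filter left 0 members 1.5-fold higher at 5 ng/ml. With a minimum of 5 CPM the count was 2, and with 50 CPM it was 1 at 50 ng/ml. With a limit of 25% in place of 1.5-fold the counts were 4 higher and 2 lower at 5 ng/ml and 8 and 3 at 50 ng/ml. At 2-fold they were 0 higher at 5 ng/ml and 1 at 50 ng/ml. For the other scalings, the cell filter, the 5 and 50 CPM limits and the 2-fold limit, the shares of all genes were not computed. Those counts of members therefore cannot be set against a background. The median log2 ratio of 50 to 5 ng/ml was 0.054 with TMM factors and 0.062 with median-of-ratios factors. At 7000 UMIs per cell the median excess CV2 at 50 ng/ml was 0.028, that of Pfkl at 5 ng/ml was -0.053, and the median correlation of members at 0 ng/ml was 0.091. With at least 2 drawn UMIs that correlation was 0.097 at 0 and 0.051 at 50 ng/ml. The cause of these shifts was not tested. The directions of Pfkl, Slc16a3, Slc2a1, Slc2a3 and Bnip3 against 0 ng/ml held under every scaling tried. Depth did not limit the abundant enzymes, but Eno2, Pfkfb4 and Pdk2, with 110 UMIs or fewer per library, and Egln3 are too sparse for statements per cell.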

Other observations

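Barcodes outside the cell filter, mostly those with over 10% mitochondrial UMIs, held 3.08% and 3.51% of UMIs at 5 and 50 ng/ml and had a different mixture of these RNAs, pooled over 168 and 177 barcodes. The abundant enzymes of lower glycolysis had a lower CPM there at both doses. These totals include mitochondrial UMIs, so a higher mitochondrial share alone lowers the CPM of every other gene. That part was not measured, and no ratio over all genes was taken, so a ratio below 1 need not mean a scarcer RNA. Gapdh was at 1742 CPM outside the filter against 3389 CPM inside it at 5 ng/ml, and at 2084 against 3578 CPM at 50 ng/ml. The ratio of outside to inside was 0.52 and 0.60 for Eno1, 0.70 and 0.68 for Pkm, and 0.55 and 0.55 for Bnip3. It was 0.69 and 0.63 for Pgam1, and 0.78 and 0.74 for Pgk1. Other members had ratios above 1 at both doses. Slc16a1, which encodes MCT1, had ratios of 1.38 and 1.36, Slc16a3 1.21 and 1.46, Slc2a1 1.29 and 1.22, and Slc2a3 1.07 and 1.08. Among enzymes Hk2 had 1.19 and 1.13, Pfkp 1.08 and 1.37 and Pfkl 1.05 and 1.04. The subunits of the pyruvate carrier had lower ratios, Mpc1 0.43 and 0.55 and Mpc2 0.50 and 0.69. The library without FGF4 had 14 such barcodes, and there the ratios differed less from 1 for 3 of the abundant enzymes: Gapdh had 0.88 from 1844 UMIs, Eno1 0.74 from 511 and Pkm 0.93 from 524. Slc2a3 had 0.79 from 157 UMIs and Bnip3 0.98 from 20.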
